A study of Mus musculus with 6 samples.

Results

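The genes described here are 10 genes of bone morphogenetic protein (BMP) signalling in the roof plate and cortical hem, chosen by name. They are the transcription factor gene Lmx1a, the ligand genes Bmp4, Bmp5, Bmp6, Bmp7 and Gdf7, and the target genes Msx1, Msx2, Bambi and Id3. Each symbol was found once among the 37991 genes of the count files, and all 10 passed the filter on low counts. RNA came from the dorsal telencephalon of CD1 mouse embryos at E13.5. A dose of 100 ng FGF2 had been injected into the brain ventricles of 3 embryos (numbered 6, 7 and 8), and the vehicle, PBS with 0.1% BSA, into those of 3 controls (7, 8 and 9). One library was made from each embryo, from formalin-fixed coronal cryosections of regions rostral to the hippocampus, and the sources used here do not give the time from injection to collection. Each value is thus an average over all cell types in the sections taken.

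The roof plate is the strip of cells that closes the neural tube along its dorsal midline. In the forebrain it borders the cortical hem, the medial edge of the cortex, and gives rise with it to the choroid plexus. These midline tissues secrete BMPs, which bind paired serine/threonine kinase receptors and cause Smad1, Smad5 and Smad9 to be phosphorylated, join Smad4 and switch on target genes. Lmx1a, a LIM homeodomain factor, is known as a determinant of the roof plate and a marker of the hem.

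Total counts were 64631136 to 81532334 in the FGF2 embryos and 61489462 to 68101511 in the vehicle embryos, and every count of vehicle 9 was even. Reads of Y-linked genes numbered 10475 to 16232 in vehicle 7 and all FGF2 embryos and 22 each in vehicle 8 and vehicle 9, so sex and treatment partly coincide. Of 7 marker genes of cortical identity, 3 fell and 0 rose, and their summed level was 1499 to 1541 CPM in FGF2 embryos against 2062 to 2203 CPM in vehicle embryos (CPM, the count scaled to a common library size with TMM factors). Of 10 choroid plexus markers 7 rose and 1 fell, at 177 to 493 against 22 to 24.5 CPM summed, with Folr1 at 0 reads in vehicle 7 and vehicle 9 and Htr2c in vehicle 8. The marker that fell was Aqp1, most of the vehicle sum at 19.5, 20.3 and 19.8 CPM in vehicle embryos 7, 8 and 9. In FGF2 embryos 6, 7 and 8 Aqp1 was at 12.7, 8.27 and 6.03 CPM (adjusted p = 0.0492, edgeR). Among the choroid plexus genes with the smallest p was Clic6, an intracellular chloride channel protein, at a log2 fold change of 6.25. Of 5 ventral telencephalon markers 3 rose, at 390.5 to 544 against 23.5 to 103 CPM, and of 6 diencephalon markers 4 rose, at 99.8 to 268 against 58.5 to 66.2 CPM, with Gbx2 at 0 reads in vehicle 7. Of 12 meningeal markers 1 rose and 2 fell, at 2326 to 2562 against 3656 to 4176 CPM, with 7 of the 12 log2 fold changes above 0 and a median of 0.05. The collagen genes Col1a1, Col1a2 and Col3a1 made up most of that sum, and the other 9 summed to 292 to 320.02 against 286 to 315 CPM and overlapped. Of 6 endothelial and 6 surface ectoderm markers 0 passed in edgeR (1 of each at an unadjusted p under 0.05, and 0 and 1 called with DESeq2), and the groups overlapped at 179 to 200.5 against 167 to 190 CPM and at 68.3 to 112 against 79 to 115 CPM. Over all genes tested in edgeR 2.68% rose, 0.951% fell and 19.3% had an unadjusted p under 0.05. With DESeq2 2065 of 29000 genes were called. In all 6 fits without 1 embryo, Emx1, Eomes, Clic6, Otx2, Folr1, Nkx2-1, Isl1, Olig3 and Col1a1 stayed called. Ttr, Htr2c, Sostdc1 and Gad2 were called in 5 of them, and Kcne2 and Col1a2 in 3. Aqp1, Barhl2 and Pax6 were called in 2, and Gbx2, Tcf7l2 and Foxd1 in 1. The part of the tissues marked by these genes in the results that follow was not tested, and in such bulk samples fewer cells of a type and less RNA per cell cannot be told apart.

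In the FGF2 embryos Lmx1a, Bmp5, Bmp6 and Id3 rose, by 7.75-fold, 2.51-fold, 1.97-fold and 2.34-fold, and no member fell. Bmp4, Bmp7, Gdf7, Msx1, Msx2 and Bambi did not pass an adjusted p of 0.05 (edgeR's quasi-likelihood test, Benjamini-Hochberg over 21983 genes). Among all genes tested 3.63% were called in the same fit, 2.68% as higher and 0.951% as lower. By role, 1 of 1 transcription factor, 2 of 5 ligands and 1 of 4 targets rose. The median log2 fold change was 0.59 over the 10 members, 0.60 over the ligands and 0.36 over the targets, against 0.01 over all genes tested. A difference between ligands and targets was not tested. In 6 of the 10 members every FGF2 embryo was above every vehicle embryo, as in 14.6% of all genes tested, and 28.2% of all genes had no overlap in either direction. The same 6 members, Lmx1a, Bmp5, Bmp6, Bmp7, Bambi and Id3, had an unadjusted p under 0.05, as did 19.3% of all genes. With embryo sex as a covariate 0 of the 10 members and 5 of all genes were called in edgeR (5 members at an unadjusted p under 0.05), at log2 fold changes of 3.32 for Lmx1a, 1.47 for Bmp5, 0.93 for Bmp6 and 1.40 for Id3. The SEs in that fit were 0.48 for Lmx1a, 0.31 for Bmp5, 0.33 for Bmp6 and 0.23 for Id3. Vehicle 7 was the only control with more than 22 Y-linked reads, so the treatment effects of that fit rest on 1 control embryo.

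**Figure D1:**
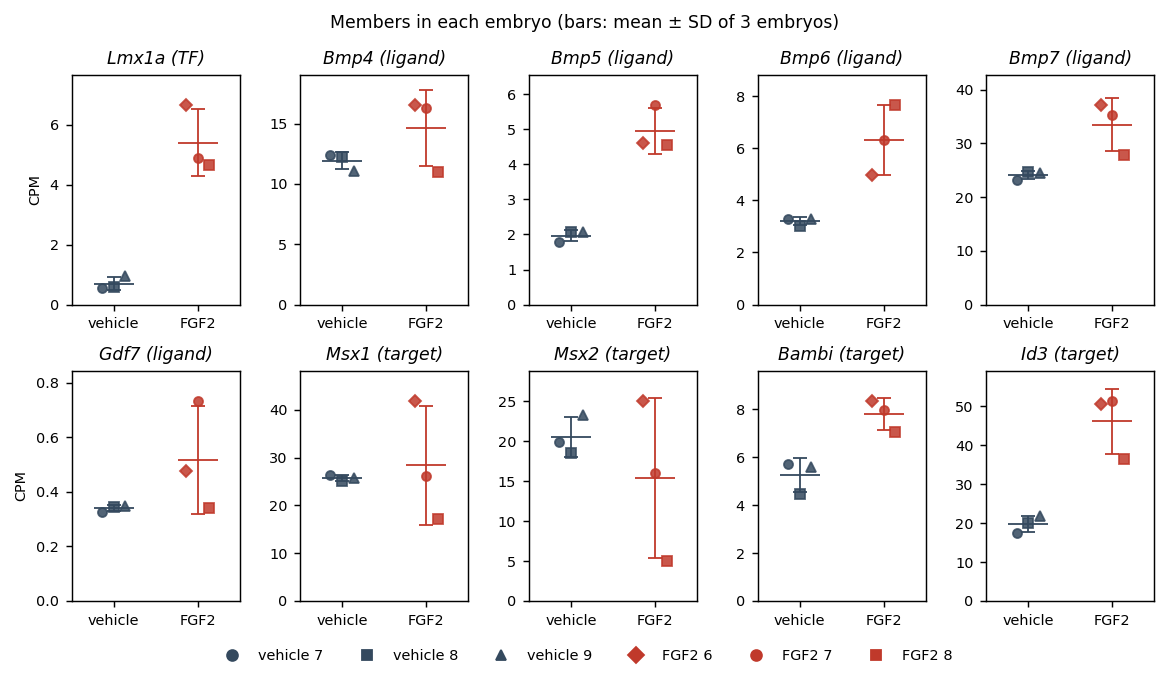
CPM (vertical axes, each from 0) of the 10 members in each of the 3 vehicle and 3 FGF2 embryos, with bars for the mean ± SD. The groups are apart for Lmx1a, Bmp5, Bmp6, Bmp7, Bambi and Id3, while the FGF2 embryos spread on both sides of the vehicle embryos for Msx1 and Msx2.

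Lmx1a, on chromosome 1 (169619370 to 169778872, NCBIM37), had 562, 347 and 300 reads in FGF2 embryos 6, 7 and 8, and 33, 40 and 60 reads in vehicle embryos 7, 8 and 9. These correspond to 6.68, 4.89 and 4.66 CPM against 0.540, 0.598 and 0.952 CPM. Every FGF2 embryo lay above every vehicle embryo. The log2 fold change was 2.95 ± 0.29 (SE, adjusted p = 0.00264, edgeR), a 95% interval of 4.88-fold to 12.3-fold. RPKM, which scales reads for gene model length and was deposited by the authors, gave 1.32 ± 0.370 against 0.126 ± 0.0416 (SD, n = 3), so Lmx1a had the lowest RPKM of the 10 members in vehicle 7 and vehicle 8 and stood above Gdf7 in the other 4 embryos. The call held in each fit without 1 embryo (adjusted p up to 0.0230, edgeR).

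Of the ligands, Bmp5, Bmp6 and Bmp7 form one closely related subgroup, Bmp4 belongs with Bmp2 in another, and Gdf7 with Gdf5 and Gdf6 in a separate one. Bmp5, on chromosome 9 (75623171 to 75748117), was at 4.60, 5.71 and 4.56 CPM in FGF2 embryos 6, 7 and 8 and at 1.78, 2.06 and 2.06 CPM in vehicle embryos 7, 8 and 9. The lowest FGF2 embryo lay well above the highest vehicle embryo. Its log2 fold change was 1.33 ± 0.19 (SE, adjusted p = 0.0107, edgeR). The call did not hold without vehicle 7 (adjusted p = 0.0679) or without vehicle 8 (0.0644). The span of Bmp5 shares 2468 bases with that of Gm16662, which was higher as well (log2 fold change 1.19, adjusted p = 0.0348), and the counts of that stretch go to both. From log2(RPKM + 1) in limma, Bmp5 was also called (adjusted p = 0.0372), but not without the filter on low RPKM (0.0535).

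Bmp6, on chromosome 13 (38436995 to 38592183), was at 4.97, 6.32 and 7.68 CPM in FGF2 embryos 6, 7 and 8 and at 3.30, 3.02 and 3.30 CPM in vehicle embryos 7, 8 and 9. The groups did not overlap, and FGF2 8 was the highest embryo, which was so for no other member. Its log2 fold change was 0.98 ± 0.20 (SE, adjusted p = 0.0407, edgeR). This call was lost without FGF2 7 (adjusted p = 0.103), without vehicle 7, 8 or 9 (0.145, 0.179 and 0.121) and with the embryo number as a replicate block (0.0612). The treatment effect of the block fit rests on embryos 7 and 8 of each group, since FGF2 6 and vehicle 9 share their numbers with no other embryo. Of its span 236 bases are shared with Txndc5, a far more abundant transcript at 94.4 ± 17.6 against 103 ± 2.23 CPM (SD), which did not pass. By RPKM the rise of Bmp6 was from 0.701 ± 0.0502 to 1.55 ± 0.304 (SD).

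Bmp7 was the most abundant ligand per length in every embryo. It is on chromosome 2 (172693513 to 172765822), and stood at 37.2, 35.3 and 27.9 CPM in FGF2 embryos 6, 7 and 8 against 23.2, 24.7 and 24.5 CPM in vehicle embryos 7, 8 and 9. All FGF2 embryos were above all vehicle embryos, FGF2 8 by the least. The log2 fold change of 0.47 ± 0.12 (SE) did not pass (adjusted p = 0.0818, edgeR), and its 95% interval was 1.14-fold to 1.68-fold. Without FGF2 8 it was called, at 0.59 (adjusted p = 0.00387), and with all embryos it was called with DESeq2 (0.0195) and with voom (0.00688).

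Bmp4 and Gdf7 did not pass and overlapped between the groups. Bmp4, on chromosome 14 (47003195 to 47010344), was at 16.6, 16.3 and 11.02 CPM in FGF2 embryos 6, 7 and 8 and at 12.4, 12.3 and 11.1 CPM in vehicle embryos 7, 8 and 9. FGF2 8 was the lowest of the 6 embryos, and the log2 fold change was 0.30 ± 0.17 (SE, adjusted p = 0.388, edgeR). Without FGF2 8 Bmp4 was called, at 0.46 (adjusted p = 0.0276), while without FGF2 6 the value was 0.20 and with the replicate block 0.12. The span shares 1764 bases with Gm15222 and 89 bases with Gm15217. Gdf7, a roof plate ligand on chromosome 12 (8304740 to 8308760), had only 40, 52 and 22 reads in FGF2 embryos 6, 7 and 8 and 20, 23 and 22 reads in vehicle embryos 7, 8 and 9. Its log2 fold change was 0.60 ± 0.38 (SE, adjusted p = 0.433, edgeR), with a 95% interval from 0.826-fold to 2.79-fold. The value was 0.27 without FGF2 7 and 0.82 without FGF2 8, and passed in neither fit.

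**Figure D2:**
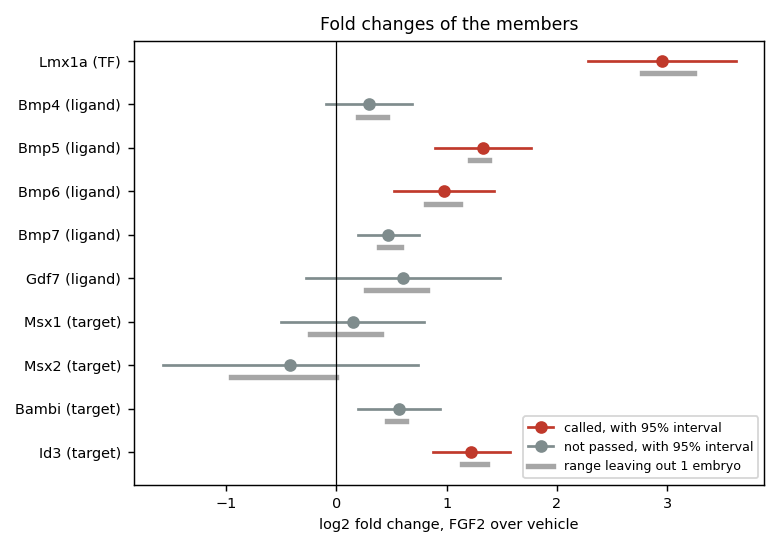
Log2 fold changes of the 10 members, FGF2 over vehicle (horizontal axis), with 95% intervals and, as grey bars, the range of the value when 1 embryo is left out. Lmx1a at 2.95, Bmp5 at 1.33, Id3 at 1.22 and Bmp6 at 0.98 were called, and the leave-out ranges of Msx1 lie on both sides of 0.

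The summed RPKM of the 5 ligands was 18.4, 18.8 and 14.1 in FGF2 embryos 6, 7 and 8 and 12.01, 12.02 and 11.9 in vehicle embryos 7, 8 and 9. The groups did not overlap, and the vehicle embryos were close together. Bmp7 made up 49.6% ± 1.99 of this sum in FGF2 embryos and 49.5% ± 1.46 in vehicle embryos (SD, n = 3). The share of Bmp4 was 29.4% to 34.9% against 37.3% to 40.4%, that of Bmp5 5.68% to 7.84% against 3.66% to 4.35%, and that of Bmp6 6.61% to 12.8% against 5.37% to 6.24%. A larger share of the ligand RPKM thus lay with Bmp5 and Bmp6 and a smaller one with Bmp4, with no overlap between the groups, and as shares of one sum these are not separate results. Gdf7 was at most 2.32% in any embryo.

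Id3, an inhibitor of basic helix-loop-helix factors that BMP-activated Smads induce, was the target that rose. On chromosome 4 (135699412 to 135701670), it was at 50.5, 51.4 and 36.6 CPM in FGF2 embryos 6, 7 and 8 and at 17.5, 20.02 and 21.7 CPM in vehicle embryos 7, 8 and 9. The lowest FGF2 embryo was well above the highest vehicle embryo. The log2 fold change was 1.22 ± 0.15 (SE, adjusted p = 0.00646, edgeR), and the call held in each fit without 1 embryo (adjusted p up to 0.0464). Id3 ranked first in RPKM among the members in every FGF2 embryo and behind Msx1 in every vehicle embryo.

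Bambi, a pseudoreceptor without a kinase domain that dampens BMP signalling and is itself induced by it, is on chromosome 18 (3507955 to 3516402). It was at 8.34, 7.96 and 7.06 CPM in FGF2 embryos 6, 7 and 8 and at 5.72, 4.44 and 5.59 CPM in vehicle embryos 7, 8 and 9. The groups did not overlap, but the log2 fold change of 0.57 ± 0.16 (SE) did not pass (adjusted p = 0.105, edgeR). It was called with DESeq2 (adjusted p = 0.0166) and with voom and sample quality weights (0.0284).

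Msx1 and Msx2, homeodomain repressors of the dorsal midline and textbook BMP targets, did not pass, and differed most among the FGF2 embryos. Msx1, on chromosome 5 (38211724 to 38215822), was at 41.8, 26.2 and 17.2 CPM in FGF2 embryos 6, 7 and 8 and at 26.3, 24.98 and 25.8 CPM in vehicle embryos 7, 8 and 9. One FGF2 embryo was above the vehicle embryos, one was level with them and one was below. The log2 fold change was 0.15 ± 0.28 (SE, adjusted p = 0.808, edgeR), and its sign turned, to -0.24, without FGF2 6. Msx2, on chromosome 13 (53562250 to 53568443), was at 25.1, 16.0 and 5.05 CPM in FGF2 embryos 6, 7 and 8 and at 19.9, 18.5 and 23.3 CPM in vehicle embryos 7, 8 and 9. FGF2 6 was the highest embryo and FGF2 8 the lowest, at 0.246 of the vehicle mean. Its log2 fold change was -0.42 ± 0.49 (SE, adjusted p = 0.691, edgeR), with a 95% interval from 0.335-fold to 1.67-fold. It was -0.96 without FGF2 6, -0.00 without FGF2 8 and -1.08 with the embryo number as a replicate block, and passed in none of these fits. The block fit likewise takes no treatment effect from FGF2 6. The coefficient of variation of Msx1 was 43.8% among FGF2 embryos and 2.5% among vehicle embryos, and that of Msx2 was 65.2% and 11.9%. Whether the spread differed between the groups was not tested.

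The promoters of the target that rose and of the pair that did not are shown as the 250 bases before each gene's start on the gene's strand, from RefSeq (GRCm38.p6). Of the 10 members 8 were in that table, and Bmp7 and Bambi were not matched. Capitals mark matches, on either strand, to a GC-rich Smad motif, GGAGCC, which reads GGCTCC on the opposite strand, and to the Smad-binding element CAGAC, which reads GTCTG there. They are shown because these are the letters on which Smads are known to bind DNA. The windows are chr4:136143572-136143821 (plus strand) for Id3, chr5:37824586-37824835 (minus strand) for Msx1 and chr13:53472781-53473030 (minus strand) for Msx2.
Id3: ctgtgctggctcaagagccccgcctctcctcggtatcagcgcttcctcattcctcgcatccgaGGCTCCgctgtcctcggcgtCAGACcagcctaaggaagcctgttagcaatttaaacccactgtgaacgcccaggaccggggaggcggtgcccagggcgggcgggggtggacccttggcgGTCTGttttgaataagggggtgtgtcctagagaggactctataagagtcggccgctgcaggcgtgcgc
Msx1: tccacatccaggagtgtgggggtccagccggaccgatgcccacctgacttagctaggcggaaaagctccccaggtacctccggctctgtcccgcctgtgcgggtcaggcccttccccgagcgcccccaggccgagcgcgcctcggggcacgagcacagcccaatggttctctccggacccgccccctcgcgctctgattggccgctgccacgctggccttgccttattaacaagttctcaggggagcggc
Msx2: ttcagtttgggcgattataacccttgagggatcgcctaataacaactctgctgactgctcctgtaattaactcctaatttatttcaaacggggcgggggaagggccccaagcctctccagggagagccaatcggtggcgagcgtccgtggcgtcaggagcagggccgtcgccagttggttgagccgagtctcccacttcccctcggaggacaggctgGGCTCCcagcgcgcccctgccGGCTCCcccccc
Id3 holds 2 matches to CAGAC, whose first bases lie 167 and 68 bases before the gene's start, and 1 to GGAGCC at 187 bases. Msx2 holds 2 matches to GGAGCC, at 33 and 12 bases, and the window of Msx1 holds neither motif. GGAGCC was found in 4 of the 8 members (Bmp4, Gdf7, Msx2 and Id3) and in 26% of 32851 RefSeq promoter windows of that length. CAGAC was found in 3 of 8 (Bmp5, Bmp6 and Id3) and in 42.2% of all windows. The palindrome GGCGCC, the core of the BMP response element of Id1, was in 0 of 8 members and 9.59% of all windows. The motifs were searched on both strands and no match overlapped another in the sequences shown. Bases farther from each gene's start were not searched, and a bearing of the matches on the calls was not tested.

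The summed RPKM of the 4 targets was 62.4, 51.5 and 32.9 in FGF2 embryos 6, 7 and 8 and 32.7, 31.8 and 36.4 in vehicle embryos 7, 8 and 9. Unlike the ligand sum, this sum overlapped between the groups, with FGF2 8 within the vehicle range. The ratio of target to ligand RPKM was 2.33 to 3.39 in FGF2 embryos and 2.64 to 3.06 in vehicle embryos and overlapped too. The shares of Id3, Msx1 and Msx2 in the target sum did not overlap between the groups, while that of Bambi did (2.89% to 4.37% against 2.77% to 3.60%). Id3 was 46.2% to 62.6% of it in FGF2 embryos against 29.9% to 35.04%, Msx1 26.7% to 34.2% against 35.4% to 41.3%, and Msx2 6.14% to 16.7% against 23.9% to 26.4%. The ratio of Id3 to Msx2 RPKM was 2.77, 4.26 and 10.2 in FGF2 embryos 6, 7 and 8. In vehicle embryos 7, 8 and 9 it was 1.18, 1.44 and 1.33. As shares of one sum, and a ratio of its terms, these are not separate results, and they reflect Msx1 and Msx2 as well as Id3. Relative to the vehicle mean CPM, FGF2 8 was at 0.246 for Msx2 and 1.85 for Id3. The ratio of Msx1 to Msx2 RPKM, which does not contain Id3, did not overlap between the groups either. This ratio was 2.05, 2.004 and 4.38 in FGF2 embryos 6, 7 and 8 and 1.64, 1.63 and 1.34 in vehicle embryos 7, 8 and 9. Its difference between the groups was not tested. In FGF2 6 the RPKM of Msx1 and of Msx2, 21.4 and 10.4, was above that of every vehicle embryo.

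FGF2 8 was the lowest of the FGF2 embryos in 9 of the 10 members, where it was lowest in 40.8% of all genes tested and highest in 40.4%. Bmp6 was the exception. Among genes that are no members, the summed level of 9 roof plate and hem Wnt pathway genes was also lowest in FGF2 8, at 209, 170 and 96.7 CPM in FGF2 embryos 6, 7 and 8, against 44.7 to 52.2 CPM in vehicle embryos. Ttr, the transthyretin gene of the choroid plexus, was highest there, at 59.1, 125.6 and 391.9 CPM in FGF2 embryos 6, 7 and 8, and the sum of the 10 markers, at 177, 244 and 493 CPM, had the same order. The other 9 choroid plexus markers summed to 117, 119 and 101 CPM, a sum that was lowest in FGF2 8. Otx2 was the largest part of that sum, at 74.5, 60.8 and 42.7 CPM in FGF2 embryos 6, 7 and 8. Otx2, Aqp1 and Prlr were lowest in FGF2 8, while Folr1, Htr2c and Kcne2 were highest there. For Clic6, Kl and Sostdc1 FGF2 8 lay between the other FGF2 embryos. The part of these differences in the spread of the members was not tested.

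**Figure D3:**
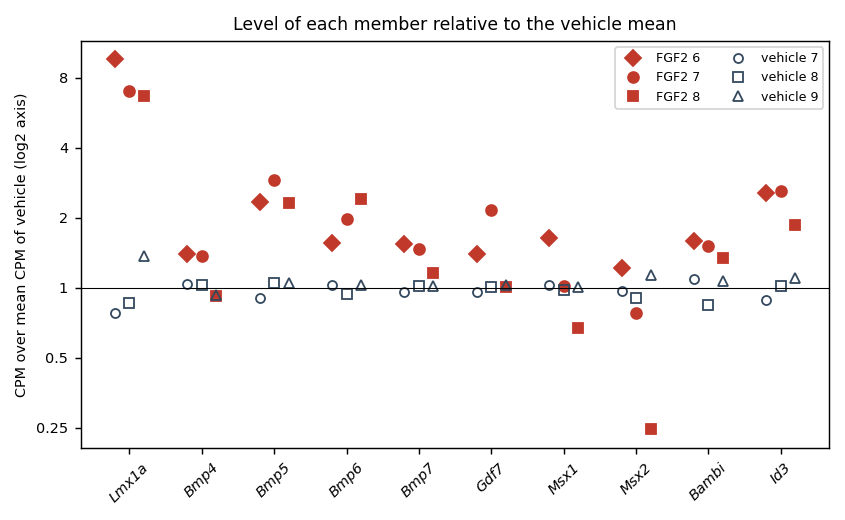
CPM of each member in each embryo divided by the mean CPM of the 3 vehicle embryos (log2 vertical axis, 1 marks the vehicle mean). FGF2 8 (filled squares) is the lowest FGF2 embryo for each member except Bmp6, and reaches 0.246 for Msx2.

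Among 9 other BMP and GDF ligands, 6 passed the low-count filter, of which 2 rose and 4 did not pass, with a median log2 fold change of 0.79. In edgeR 4 had an unadjusted p under 0.05, and 3 were called with DESeq2 and 3 with voom. Over all genes 19.3% had an unadjusted p under 0.05 in edgeR. Calls over all genes were 2065 of 29000 with DESeq2 and 2148 of 21983 with voom. Gdf5 rose to 2.38 ± 0.486 from 0.780 ± 0.160 CPM (SD, n = 3, adjusted p = 0.0224, edgeR). Gdf6, the other close relative of Gdf7, rose to 0.558 ± 0.2505 from 0.0587 ± 0.0483 CPM (adjusted p = 0.0355, edgeR), from 11 reads in the vehicle group and 122 in the FGF2 group. Both calls were lost in each fit without 1 embryo except the fit without FGF2 8 (adjusted p up to 0.111 for Gdf5 and 0.160 for Gdf6). Bmp8a, Bmp10 and Gdf2 were too low to be tested.

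Of 10 BMP receptor and co-receptor genes 1 fell, 0 rose and 9 did not pass, with a median of -0.20. Bmpr1b, a type I BMP receptor, fell from 68.1 ± 8.70 to 44.9 ± 2.57 CPM (SD), a log2 fold change of -0.60 ± 0.11 (SE, adjusted p = 0.0273, edgeR). Leaving out FGF2 6, FGF2 7, vehicle 7 or vehicle 8 removed this call (largest adjusted p 0.137). Of 10 genes of the BMP Smads and the proteins that restrain them, 0 passed in edgeR (5 at an unadjusted p under 0.05), 1 with DESeq2 and 2 with voom, with a median of -0.11. Over all genes these were 3.63% (19.3% unadjusted), 2065 of 29000 and 2148 of 21983. The smallest p among these 10 genes was that of Ski, a corepressor of Smads, at 148 ± 11.4 against 184 ± 11.9 CPM (adjusted p = 0.109, edgeR).

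Of 12 genes listed as extracellular BMP antagonists 2 rose, 0 fell and 10 did not pass in edgeR, with a median of 0.43. In edgeR 4 of the 12 had an unadjusted p under 0.05, and 4 were called with DESeq2 and 5 with voom. Over all genes these were 19.3%, 2065 of 29000 and 2148 of 21983. Sostdc1, also expressed in choroid plexus and counted among its markers above, rose to 9.14 ± 4.66 from 0.949 ± 0.349 CPM (SD, adjusted p = 0.0101, edgeR), a call lost without vehicle 8 (0.0640). Sost, its relative, rose to 0.307 ± 0.0520 from 0.0414 ± 0.0159 CPM (adjusted p = 0.0264, edgeR), from 8 reads in the vehicle group and 67 in the FGF2 group, a call that held in no fit without 1 embryo except that without FGF2 8 (up to 0.128). Nog, which encodes noggin, did not pass, at 13.6 ± 1.86 against 12.9 ± 0.522 CPM.

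Outside the members, 7 further BMP targets had a median of -0.14, and 1 of them rose and 0 fell in edgeR, with 2 at an unadjusted p under 0.05 and 2 called with DESeq2 and with voom. Over all genes 19.3% had such a p, and 2065 of 29000 were called with DESeq2 and 2148 of 21983 with voom. The target that rose was Id1, another inhibitor of basic helix-loop-helix factors, at 16.4, 20.5 and 17.2 CPM in FGF2 embryos 6, 7 and 8 and at 7.62, 7.02 and 8.22 CPM in vehicle embryos 7, 8 and 9. Every FGF2 embryo was above every vehicle embryo. Its log2 fold change was 1.24 ± 0.13 (SE, adjusted p = 0.00375, edgeR), close to the 1.22 of Id3, and the call held in each fit without 1 embryo (adjusted p up to 0.0302). Id4, of the same family, lay the other way without passing, at 314, 323 and 210 CPM in FGF2 embryos 6, 7 and 8 and at 380.1, 410.0 and 429.6 CPM in vehicle embryos 7, 8 and 9. Every FGF2 embryo was below every vehicle embryo, and the log2 fold change was -0.53 ± 0.16 (SE, adjusted p = 0.129, edgeR), called only without FGF2 8 (0.0217) among the fits without 1 embryo. Smad6 and Smad7, inhibitory Smads that BMP signalling induces, are also counted among the BMP Smads and the proteins that restrain them above. They did not pass, at 10.2 ± 2.14 against 11.2 ± 1.83 CPM and at 14.5 ± 1.22 against 14.3 ± 0.292 CPM (SD).

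Of 9 roof plate and hem genes of the Wnt pathway 8 passed the filter, of which 6 rose, 0 fell and 2 did not pass, with a median of 1.97. The 4 with the smallest p were Rspo2, Rspo3, Wnt5a and Wnt8b, at log2 fold changes of 4.81, 2.49, 1.21 and 5.18. Wnt5a lost its call when vehicle 7 or 8 was left out (largest adjusted p 0.0770), and Wnt8b when vehicle 8 was (0.0654). Lmx1b, the paralogue of Lmx1a, did not pass, at 12.6 ± 3.73 against 15.5 ± 0.981 CPM (SD), a log2 fold change of -0.30 ± 0.21 (SE, adjusted p = 0.471, edgeR).

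**Figure D4:**
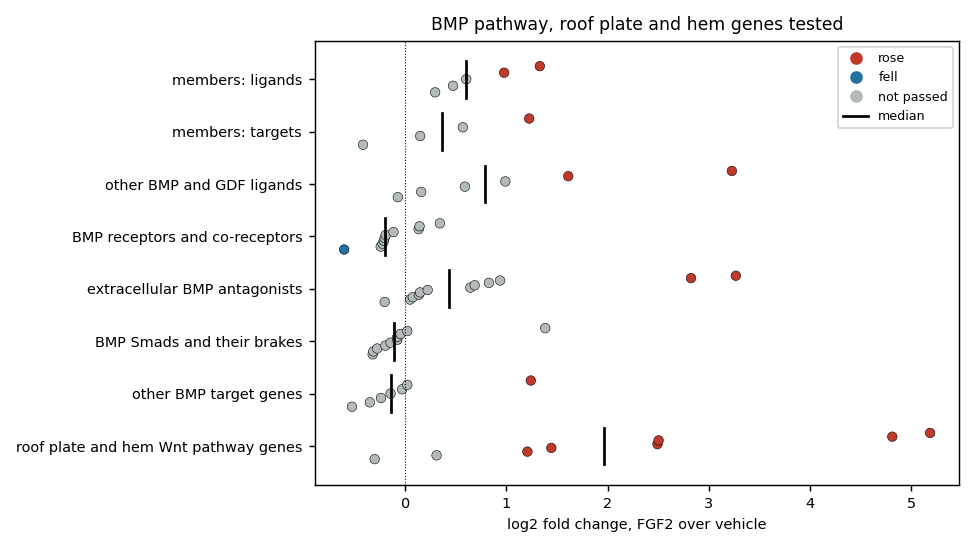
Log2 fold changes (horizontal axis, FGF2 over vehicle) of the tested ligands and targets among the members and of 6 lists of pathway genes, 1 point per gene, with the list's median as a bar. The Wnt pathway genes of the roof plate and hem have a median of 1.97, and the receptors, Smads and other targets have medians of -0.20, -0.11 and -0.14.

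The genes whose levels over the 6 embryos were most like those of the called members were sought among those averaging 1 CPM or more whose span overlapped no other. Likeness was the root mean square difference of log2 CPM, each gene centred on its own mean, which is a description and carries no test. For Lmx1a these were Ret, a receptor tyrosine kinase, at 0.285, Onecut2, a transcription factor, at 0.312 and Sulf1, an enzyme that trims heparan sulfate, at 0.339. The nearest of 8788 genes to Bmp5 was Id1 at 0.108, followed by Foxj1, a factor for motile cilia, at 0.122 and A730017C20Rik at 0.124. Bmp6 was closest to Gstp1, whose reads may be shared with a near-identical copy, at 0.103, Arhgap24 at 0.115 and Dhrs3, a retinal reductase, at 0.116. Id3 was closest to Sdsl at 0.116, the cell cycle inhibitor Cdkn1a at 0.121 and the ligand Wnt9a at 0.135.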

How the data were processed

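RNA-seq libraries of 6 embryos were analysed, 3 per group as labelled. The tools listed, per the submitters' processing notes, were bedtools 2.12.0, Bowtie2 2.1.0.0, TopHat2 2.0.9 and CASAVA 1.8, on NCBIM37 (mm9), with their roles not stated. The deposited counts are whole numbers of alignments over each gene's span, introns included, so reads in overlapping genes count for each, with strand use not given in the sources used here. Also deposited was the fraction of each span covered, which supports no result. RPKM values are as deposited by the authors, with the gene model not stated, and join 34290 genes by symbol.

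Counts were tested with edgeR 4.0.16 (R 4.3.3): filterByExpr, TMM, glmQLFit with robust estimation, no covariate, calls at an adjusted p of 0.05. Intervals of 95% use the test's degrees of freedom. The labels name separate embryos, and an exact permutation of 3 against 3 cannot give a two-sided p below 0.1. Alternatives used limma 3.58.1 and DESeq2 1.42.0. Scripts were tested on simulated counts. The members, lists, motifs and rule for named genes (members, smallest p in each list, nearest genes) were chosen with earlier results of these data known. Nog, Lmx1b, Id4, Smad6 and Smad7, and the marker sums without Ttr or the collagen genes, were chosen after their values had been seen. So were the order of the single choroid plexus markers over the FGF2 embryos, the values of Aqp1 and the ratio of Msx1 to Msx2. Promoter sequences are from RefSeq (GRCm38.p6), and all gene coordinates are those of the files (NCBIM37).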

Additional observations from a re-analysis of the deposited data

How the results depend on the processing

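In these fits the calls rest on few embryos. Leaving out 1 embryo gave 218 to 1943 called genes (181 to 964 higher, 37 to 979 lower) against 799 (590 and 209), and 2 to 6 called members against 4. The counts of all genes, higher and lower, were 2148, 1221 and 927 with voom (sample quality weights), 2065, 1359 and 706 with DESeq2, 5, 4 and 1 with embryo sex as a covariate, and 488 and 344 (called and higher) on spans overlapping no other. They were 432, 318 and 114 with log2(RPKM + 1), 431, 324 and 107 with log2(RPKM + 0.1), and 271, 229 and 42 with log2(RPKM + 1) and no filter. The count of members was 0 with sex as a covariate, where vehicle 7 is the only control with more than 22 Y-linked reads. It was 2 (Lmx1a and Id3) without the RPKM filter, and 2 (Lmx1a and Id3) on spans overlapping no other, where 6 members remain to be tested. The cause of these shifts was not tested. With the embryo number as a replicate block 703 genes were called, 557 higher and 146 lower, and 3 members (Lmx1a, Bmp5 and Id3). The numbers 7 and 8 occur in both groups, and the labels do not say what the number marks. Number 6 occurs only in the FGF2 group and 9 only in the vehicle group. The treatment effects of the block fit thus rest on embryos 7 and 8 of each group. Same-numbered embryos deviated from their group means with correlations of -0.04 and -0.03. Differently numbered embryos had correlations from -0.08 to 0.06. With so few embryos these values cannot tell whether same-numbered embryos shared a litter or day. Msx1 turned to -0.27 with the block, which takes no treatment effect from FGF2 6, and to -0.24 without FGF2 6. The latter was the lowest of its values without 1 embryo, which reached 0.41. RLE factors, library totals, the other low-count filters and halved vehicle 9 counts left the same 4 members called. Of the members Gdf7 had the fewest reads, 20 to 52 per embryo, which limits its precision.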
